A study of Mus musculus with 11 samples.

Results

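Genes for the proteins of the cytosolic and the mitochondrial ribosome were followed through RNA sequencing of mouse colonic epithelial cells. Members were chosen by symbol: Rpl or Rps followed by a number and at most 1 letter (a, l or x), with Rplp0, Rplp1, Rplp2 and Rpsa, for the cytosolic ribosome, and Mrpl or Mrps followed by a number for the mitochondrial ribosome. The rule found 158 of the 54513 rows of the count table, of which 83 were cytosolic (51 of the large and 32 of the small subunit) and 75 mitochondrial (49 large, 26 small). Of these, 155 passed a filter on low counts and were tested, 81 cytosolic and 74 mitochondrial. Rpl10l and Mrpl53 had 0 counts in every library, and Rpl3l had 0 to 14 counts per library, so these 3 were not tested.

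The cells came from wild-type (WT) mice and from double knockout (DKO) mice that lack the clusters miR-181a1-b1 and miR-181a2-b2 of the microRNA family miR-181. The third cluster of that family, miR-181c/d, is not named in the genotype. Mice were sampled at baseline or after 2% dextran sulphate sodium (DSS), a polysaccharide that injures the colonic epithelium, given for 7 days and followed by 2 days of recovery. There were 2 baseline WT libraries and 3 libraries in each of the other groups (baseline DKO, DSS WT and DSS DKO), all from cells enriched on Percoll, a density medium. The labels give no strain, age or sex, and do not say that the deletion is limited to a cell type. They call the libraries biological replicates without saying whether each is 1 mouse. The spread behind each p-value is thus that of these libraries, which may be technical in part.

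The cytosolic ribosome translates nuclear messages and its production follows growth signals in dividing crypt cells. Its protein genes are transcribed at high and matched levels, and many of their messages begin with a C followed by a run of pyrimidines (a terminal oligopyrimidine, or TOP, motif), through which the mTOR pathway and the RNA-binding protein LARP1 control their translation. The mitochondrial ribosome translates only the few membrane proteins encoded by mitochondrial DNA. All of its proteins are encoded in the nucleus, and many of their promoters carry sites for ETS-family factors.

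The start sites of some genes named below are shown. The pyrimidine run at the start is the sequence feature by which the 2 kinds of gene are known to differ. Rps3, Rpsa and Rplp0, not printed, have C or T runs of 2, 3 and 4 bases there, and Mrpl16 and Mrpl50 of 2 and 3. The lines are thus no measure of how common a long run is. Each line gives the 30 bases around the RefSeq start on GRCm38.p6, 15 before and 15 from the start on, read along the gene's strand. Capitals mark the longest run of C or T that touches the 5 bases on either side of the start. In Rps27l and Mrps25 this run ends before the start, so it lies outside the annotated message, and in Rps2 it begins only at base 5 of the message. For Rps27l the line is from the annotated start, of 2, with the longer run. Coordinates are chr7:141447636-141447665 (plus strand) for Rplp2, chr3:90213634-90213663 (minus) for Rps27, chr9:66946071-66946100 (plus) for Rps27l, chr17:24720048-24720077 (plus) for Rps2, chr9:105053253-105053282 (plus) for Mrpl3, chr9:98601665-98601694 (minus) for Mrps22, chr6:92184009-92184038 (minus) for Mrps25 and chr19:6057741-6057770 (minus) for Mrpl49.
Rplp2: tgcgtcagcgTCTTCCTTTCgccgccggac
Rps27: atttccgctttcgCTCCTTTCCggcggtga
Rps27l: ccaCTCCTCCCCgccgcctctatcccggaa
Rps2: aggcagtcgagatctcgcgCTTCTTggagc
Mrpl3: aagtggcccggctgtgCTTTTCCTCCgcgg
Mrps22: cgagccggaagttgCTCTatcgattccggc
Mrps25: gaagtgCCTCCCaagattcccggagccgcg
Mrpl49: gcgcgcgcatatgacaCTCagttgaggcgc

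RefSeq promoter sequences matched 61 of the 83 cytosolic and 66 of the 75 mitochondrial members. A run of at least 8 C or T that touched the 5 bases on either side of a start was found in 24 of the 61 cytosolic genes (39.3%), in 7 of the 66 mitochondrial genes (10.6%) and in 11% of all 27025 genes with a promoter sequence. The strict form, a C at the annotated start and at least 4 more pyrimidines after it, was found in 14 cytosolic genes (23.0%), in 0 mitochondrial genes and in 3.01% of all genes. The ETS word CCGGAAG, on either strand, was in 41.0% of cytosolic and 34.8% of mitochondrial promoters, against 9.93% of all promoters and 20.7% of those of genes with at least 1000 counts. It stands, as printed, in the Mrps22 line above. The NRF1 word was in 3.28% and 4.55%, against 1.07% of all and 2.39% of those of genes with at least 1000 counts, and the TATA word TATAAA in 11.5% and 7.58%, against 15.7% and 9.07%. A match is a description of these letters and not evidence of a bound factor.

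The mature arms of the deleted microRNAs carry 1 shared seed (bases 2 to 8, in capitals), shown because its complement in a 3' UTR marks a candidate direct target. Shorter matches and sites outside the 3' UTR were not searched.
mmu-miR-181a-5p: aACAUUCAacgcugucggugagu
mmu-miR-181b-5p: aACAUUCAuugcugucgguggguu
The seed words TGAATGT or GAATGTA were present in the longest annotated 3' UTR of 7 of 80 cytosolic members (8.75%) and 12 of 75 mitochondrial members (16%), against 25% of the 11210 genes with a UTR and at least 1000 counts. The cytosolic UTRs were short, with a median of 221.5 bases, and the mitochondrial ones had a median of 584 bases, against 1378.5 for all. After DSS, members with a seed word had a median log2 fold change (DKO over WT) of 0.26 against 0.30 without one among cytosolic genes, and -0.16 against -0.15 among mitochondrial genes. Mrps25, Mrps34 and Mrpl16 were among the 12 mitochondrial members with a seed word.

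Library totals ran from 41631951 to 52761900 counts. The rows of the deleted microRNAs held 0 counts in all 11 libraries, and the host transcript Mir181a-1hg stayed under 1 CPM (counts scaled to library size) in each, so these rows do not check the genotype. Libraries stood apart in 18S ribosomal RNA and in sex. Baseline DKO replicates 1 and 2 carried 23% and 8.46% of their counts in the 18S entry Rn18s-rs5, and the remaining 9 libraries 0.128% to 1.59%. Xist, expressed from an inactive X chromosome, was at 6.75 to 14.5 CPM in all baseline and 633 to 906 CPM in all DSS libraries, and the Y-linked Ddx3y at 42.6 to 54.9 and 0.162 to 0.895 CPM, so sex and DSS cannot be told apart in these samples. All 11 epithelial markers listed (Epcam, Krt8, Vil1 and others) were present, with summed levels of 17400 to 24800 CPM over the groups. In a bulk sample, fewer cells of a type and less RNA per cell cannot be told apart.

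Cytosolic members were far more abundant than mitochondrial ones. Per kilobase of transcript, the median level was 399 CPM for cytosolic and 24.6 CPM for mitochondrial members, with median transcript lengths of 771 and 1259 bases. Rplp1, an acidic stalk protein of the large subunit, had the highest level per kilobase at 1480 CPM, and Mrpl42 led the mitochondrial list at 102 CPM. At the other end were Rpl24 at 0.664 and Mrps30 at 3.19 CPM per kilobase. Rpl24 encodes a protein of the large subunit, and its row held 13 to 38 counts per library (0.449 CPM on average). Rps10 (2.14 CPM) and Rpl13a (8.9 CPM) were also low. These are core ribosomal proteins, no source used here names the read counter or annotation, and whether the 3 rows miss reads placed elsewhere was not tested. For Rps10, 64.8% of the counts of the gene and its pseudogene rows together lay in the pseudogenes, the only member for which that share passed 10%. Over all cytosolic members, pseudogene rows held 0.265% of such counts.

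Within groups, cytosolic genes varied more between libraries than mitochondrial ones. The median standard deviation (SD) of log2 CPM was 0.29 for cytosolic members, from 0.16 for Rpl3 to 0.44 for Rpl35, and 0.19 for mitochondrial members, from 0.08 for Mrpl49 to 0.32 for Mrpl23. The median was 0.17 over the 7758 genes whose log2 CPM averaged 4 or more. Rpl35 ranged over 54.3, 48.7 and 131 CPM in the 3 baseline DKO libraries, with replicate 3 apart from the others. That library had the highest summed level of each list among the 5 baseline libraries.

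The summed cytosolic level was 21900 and 26100 CPM in baseline WT, 24600, 21900 and 36200 in baseline DKO, 29400, 35400 and 31400 in DSS WT, and 33500, 40900 and 42000 in DSS DKO. All 6 DSS libraries were above both baseline WT libraries, while baseline DKO replicate 3 lay above all 3 DSS WT libraries. The summed mitochondrial level was 1920 and 2210 CPM in baseline WT, 2080, 1970 and 2710 in baseline DKO, 2790, 2910 and 2840 in DSS WT, and 2580, 2530 and 2570 in DSS DKO. The DSS WT libraries were the highest of all, and the DSS groups did not overlap, with DKO lower.

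The ratio of summed cytosolic to summed mitochondrial counts needs no scaling between libraries. It was 11.6 ± 0.293 (SD, n = 2) in baseline WT, 12.1 ± 1.15 (n = 3) in baseline DKO, 11.2 ± 0.827 (n = 3) in DSS WT and 15.2 ± 1.89 (n = 3) in DSS DKO. In DSS DKO the values were 13.0, 16.2 and 16.4, all above the DSS WT values of 10.5, 12.2 and 11, while baseline DKO replicate 3, at 13.3, lay above the lowest of them. These sums are descriptions of 2 chosen lists and carry no test.

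**Figure D1:**
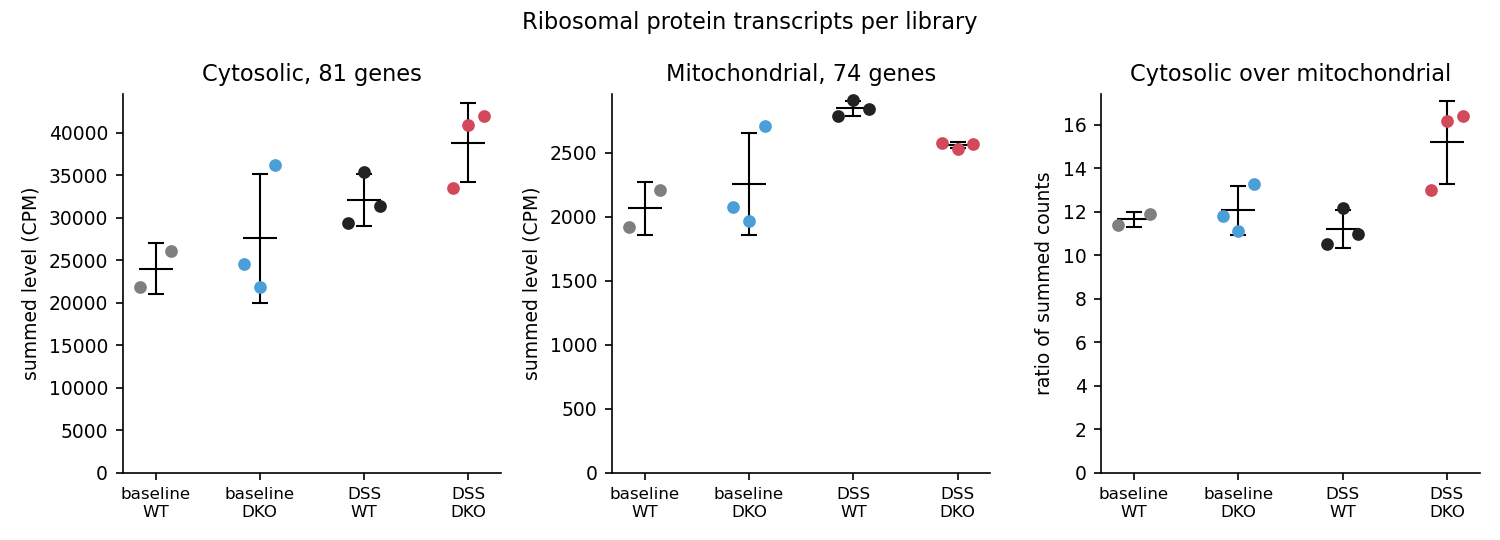
Summed level of the 81 cytosolic and the 74 mitochondrial ribosomal protein genes (CPM) and the ratio of their summed counts, for each library (points) with the group mean and SD (bars). Mitochondrial sums are highest in the 3 DSS WT libraries (2790 to 2910 CPM), and the ratio is highest in DSS DKO, with a mean of 15.2.

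In WT mice, DSS was accompanied by higher mitochondrial and, for fewer genes, cytosolic ribosomal protein messages. Of 74 mitochondrial members, 41 (55.4%) were higher after DSS and 0 lower at an adjusted p under 0.05, 23 of 48 of the large and 18 of 26 of the small subunit. Of 81 cytosolic members, 12 (14.8%) were higher and 0 lower, 4 of the large and 8 of the small subunit. Over all genes tested, 16.9% were called higher, 16.5% lower and 33.4% in either direction, so the cytosolic share was near the background and the mitochondrial one above it. Median log2 fold changes were 0.51 for mitochondrial and 0.40 for cytosolic members, against -0.01 for all genes. All 3 DSS libraries lay above both baseline libraries for 58 mitochondrial and 48 cytosolic members and below them for 2 of each list, against 31.9% of all genes above and 31.6% below. Among 1104 other protein-coding genes with transcripts under 1000 bases, 24.8% were higher and the median was 0.28.

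Among mitochondrial large-subunit genes, Mrpl3 encodes a core protein of the subunit. Its level was 31.5 and 33.9 CPM at WT baseline and 54.1, 63.3 and 59.6 CPM in DSS WT, with no overlap, a log2 fold change of 0.85 ± 0.13 (SE, adjusted p = 0.000771). Mrpl41 had the largest change of the list at 1.03 ± 0.23 (adjusted p = 0.00671), from 14.7 and 16.7 CPM to 30.1, 30.9 and 35.1 CPM. Mrpl22, Mrpl20 and Mrpl16 rose by similar amounts, with log2 fold changes of 0.98, 0.96 and 0.93. Mrpl50 rose from 44.6 and 51.0 CPM to 74.9, 82.5 and 85.1 CPM, a log2 fold change of 0.76 ± 0.14 (adjusted p = 0.00222). These genes lie on several chromosomes, among them chromosome 2 (Mrpl41), 9 (Mrpl3) and 19 (Mrpl16).

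In the mitochondrial small subunit, Mrps22 lay at 11.7 and 16 CPM in baseline WT and 26, 27.2 and 25.9 CPM in DSS WT, a log2 fold change of 0.93 ± 0.17 (adjusted p = 0.00244). Mutations of the human gene cause a mitochondrial disease, and the protein is specific to mitochondrial ribosomes. Mrps34, another protein without a bacterial counterpart, rose from 16.8 and 19.2 CPM to 32.0, 33.7 and 32.8 CPM, a log2 fold change of 0.87 ± 0.20 (adjusted p = 0.00735). Mrps25 rose from 17.3 and 19.4 to 31.5, 31.0 and 32.1 CPM, and its change was 0.78 ± 0.17 (adjusted p = 0.00493). For all 3 genes the DSS WT libraries were nearly level with one another and well above baseline. Mrps26 did not pass the test in WT, with 17.5 and 20.0 CPM at baseline and 22.3, 20.4 and 19.3 CPM after DSS (adjusted p = 0.509).

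The largest cytosolic change in WT was that of Rps14, a conserved protein of the small-subunit platform. Its libraries read 513 and 559 CPM at baseline and 1120, 1270 and 1260 CPM after DSS, a log2 fold change of 1.18 ± 0.27 (adjusted p = 0.00714). Rps3, which lies at the entry of the messenger RNA channel, rose from 606 and 724 CPM to 1110, 1300 and 1220 CPM (0.86 ± 0.20, adjusted p = 0.0066), and Rps2 changed by 0.85 and Rpsa by 0.67. Of the stalk proteins, which recruit elongation factors, Rplp2 rose from 110 and 133 CPM to 197, 236 and 205 CPM (0.81 ± 0.17, adjusted p = 0.00438) and Rplp1 by 0.84 ± 0.25 (adjusted p = 0.0227). Their partner Rplp0 had a log2 fold change of 0.40 and did not pass the test (adjusted p = 0.0991). Rpl5 and Rpl11, which bind MDM2 when ribosome assembly is disturbed, had 0.44 and 0.53 (adjusted p = 0.077 and 0.0813).

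Both WT counts fell with each library left out, and most without baseline WT replicate 1. Without baseline WT replicate 1, which leaves a lone library assumed to vary like the other groups, 0 cytosolic and 6 mitochondrial members were called, the list medians were 0.23 and 0.46, and without DSS WT replicate 3 the counts were 6 and 23. Without DSS WT replicate 2 they were 6 and 26. Mrpl3, Mrpl15, Mrpl16, Mrpl39, Mrpl50 and Mrps22 were called whichever of the 5 libraries was left out, and no cytosolic member was. T cell markers moved with this comparison, since the summed level of the 12 listed was 38.7 to 62.2 CPM in baseline WT and 168 to 182 CPM in DSS WT, and 10 of the 12 were called higher. Macrophage and dendritic cell markers summed to 51.9 to 52.5 CPM at baseline and 114 to 135 CPM after DSS, with 5 of 10 called higher. Cd14 made up most of these sums, with 36.2 and 38.1 CPM at baseline and 88.8, 103 and 101 CPM after DSS. The summed level of 12 stem and cycling crypt markers was 803 to 854 CPM at baseline and 1090 to 1280 CPM after DSS, with 5 called higher and 0 lower. These markers did not move together, since 8 had fold changes above 0, among them Pcna and Mcm5. The 4 below 0 were Lgr5, Ascl2, Olfm4 and Mki67. The part of the markers of these 3 lists in the result was not tested.

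**Figure D2:**
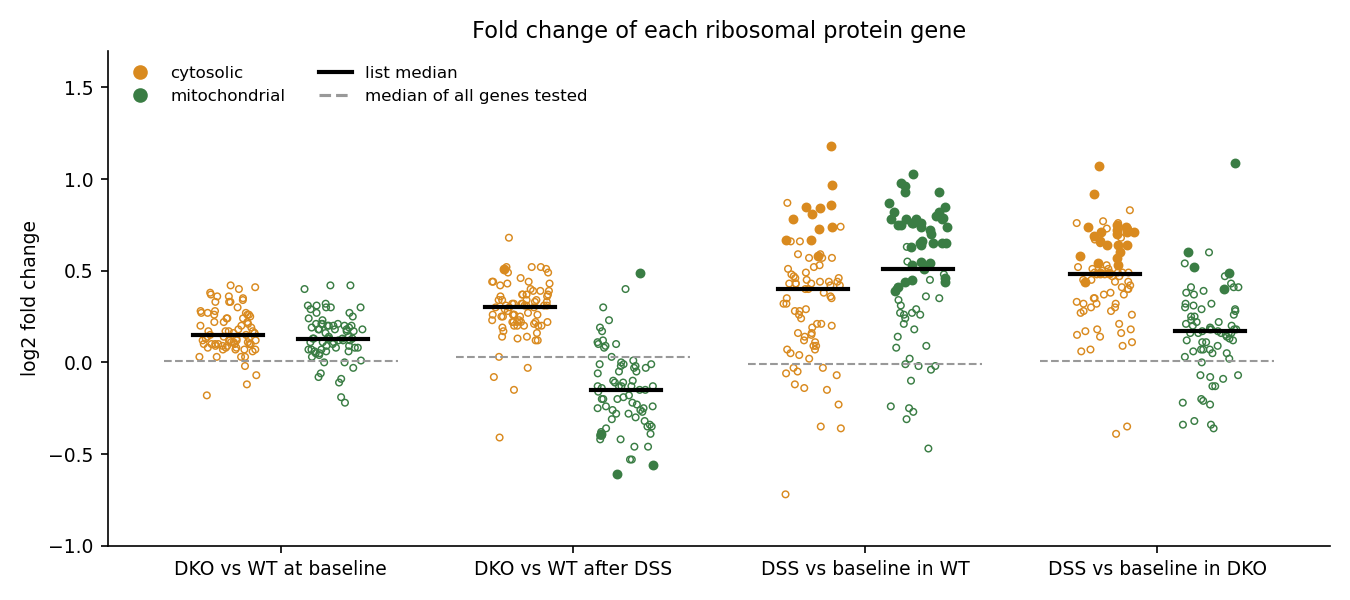
Log2 fold change of each ribosomal protein gene in 4 comparisons, cytosolic (orange) and mitochondrial (green), with filled points for genes at an adjusted p under 0.05, black bars for list medians and dashed lines for the median of all genes tested. After DSS the DKO over WT medians of the lists lie on opposite sides of the median of all genes, at 0.30 and -0.15, with few filled points.

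In DKO mice the order of the lists was the other way round in calls and medians. DSS was accompanied by higher levels of 24 of 81 cytosolic members (29.6%), 12 of each subunit, and of 5 of 74 mitochondrial members (6.76%), with 0 lower in either list. Over all genes, 12.6% were called higher, 11% lower and 23.6% in either direction. Median log2 fold changes were 0.48 for cytosolic and 0.17 for mitochondrial members, against 0.01 for all genes and 0.17 for the other genes under 1000 bases, of which 12.8% were higher. All DSS libraries lay above all baseline libraries for 15 cytosolic (18.5%) and 16 mitochondrial members (21.6%), against 20.4% of all genes. They lay below for 0 and 4 members, against 19.6% of all genes. By this measure both shares above were near that of all genes, and the cytosolic one was not ahead. Of the 12 cytosolic genes called in WT, 10 were called in DKO too (83.3% of the WT and 41.7% of the DKO calls), among them Rps14, Rps3, Rps2, Rps16, Rpsa, Rplp1 and Rplp2. All 5 mitochondrial genes called in DKO were called in WT, where they made up 12.2% of the calls.

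Rplp2 was at 126, 135 and 176 CPM in baseline DKO and 243, 275 and 308 CPM in DSS DKO, with no overlap and a log2 fold change of 0.92 ± 0.15 (adjusted p = 0.00155). Rps14 went from 594, 424 and 918 CPM to 1120, 1360 and 1590 CPM (1.07 ± 0.23, adjusted p = 0.00787). Here the highest baseline library, replicate 3, came closer to the DSS libraries than to the other baseline ones. Further cytosolic members called in DKO included Rpl30 (0.69 ± 0.18, adjusted p = 0.0165), Rpl36a (0.73), Rpl34 (0.74), Rpl5 (0.58), Rpl11 (0.60), Rpl22 (0.54) and Rpl3 (0.44). Rpl34, Rpl11 and Rpl22 were called although their groups overlapped, each through baseline DKO replicate 3.

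The mitochondrial gene with the largest change in DKO was Mrps34, at 19.4, 15.5 and 26.2 CPM at baseline and 50.1, 42.1 and 38.3 CPM after DSS, a log2 fold change of 1.09 ± 0.18 (adjusted p = 0.00152). Mrpl3 was at 35.4, 32.7 and 39.0 CPM and then at 53.9, 50.7 and 57.4 CPM (0.60 ± 0.11, adjusted p = 0.00309). The other 3 were Mrps23 (0.52 ± 0.14, adjusted p = 0.0201), Mrpl16 (0.49 ± 0.15, adjusted p = 0.0323) and Mrpl50 (0.40 ± 0.12, adjusted p = 0.0323). Mrps22 and Mrps25, both higher after DSS in WT, had log2 fold changes of 0.18 and 0.07 in DKO (adjusted p = 0.414 and 0.747).

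The DKO counts depended on the baseline libraries more than on any other choice. Leaving out baseline DKO replicate 3 raised them to 66 cytosolic and 25 mitochondrial members, leaving out replicate 1 or replicate 2 lowered them to 2 and 2 in each case, and leaving out DSS DKO replicate 2 or replicate 3 gave 5 and 4 or 7 and 2. Without both libraries rich in 18S counts, which leaves replicate 3 as the only baseline DKO library and assumes that it varies like the other groups, 0 cytosolic and 0 mitochondrial members were called and the list medians were 0.07 and -0.10. Rplp2, Rps14, Mrpl3 and Mrps34 were called whichever single library was left out. Neutrophil markers moved with this comparison, at a summed 41.5 to 66.4 CPM for the 10 listed in baseline DKO and 177 to 257 CPM in DSS DKO, and 7 of the 10 were called higher. Ly6g alone was at 18.2, 21.3 and 18.2 CPM in baseline DKO and 113, 144 and 135 CPM in DSS DKO. Of 10 macrophage and dendritic cell markers 6 were higher (56.9 to 70.5 and 77.3 to 113 CPM summed). Cd14 held 43.1, 43 and 56 CPM of the baseline DKO sums and 76.5, 75 and 56.9 CPM of the DSS DKO ones. Of 12 stem and cycling crypt markers 4 were lower and 1 higher, and 3 of 11 epithelial markers were lower. The epithelial sum was 22800 to 24800 CPM in baseline DKO and 19300 to 20700 CPM in DSS DKO, with no overlap. The part of these cells in the result was not tested.

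**Figure D3:**
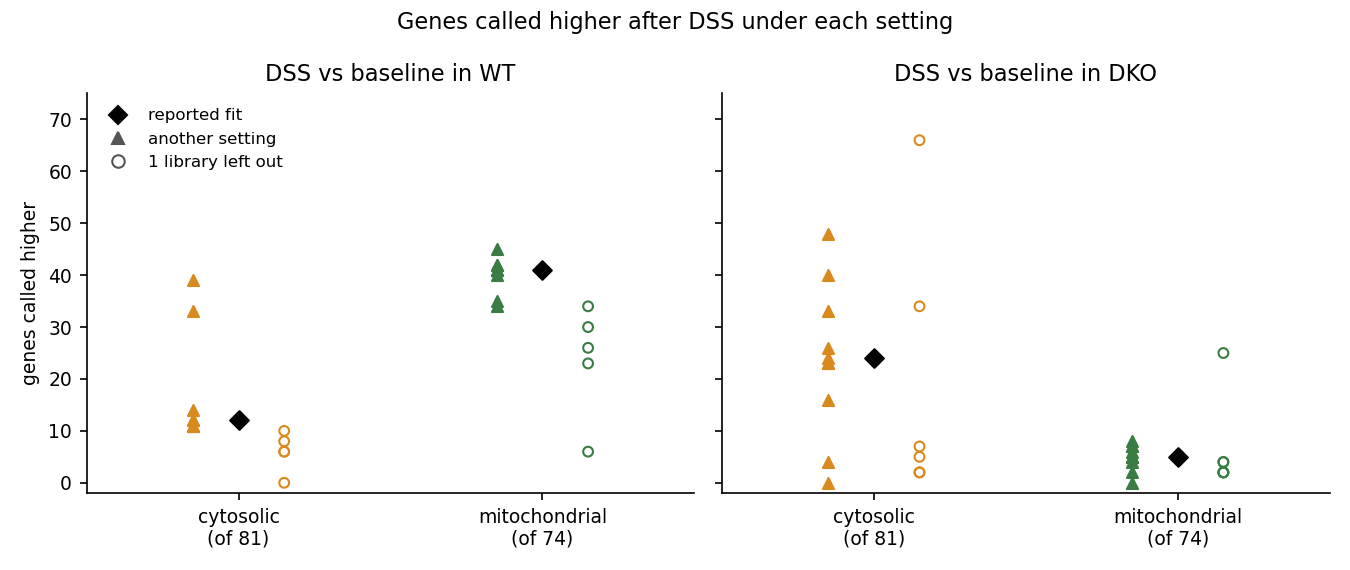
Number of cytosolic (orange) and mitochondrial (green) ribosomal protein genes called higher after DSS in WT and in DKO, in the reported fit (diamonds), under other settings of the processing (triangles) and with 1 library left out (circles). In DKO the cytosolic count runs from 0 to 66 against 24 reported, and in WT the mitochondrial count runs from 6 to 45 against 41.

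The difference between the genotypes in their response to DSS was tested directly as the interaction. At an adjusted p under 0.05, 0 cytosolic and 0 mitochondrial members were called by edgeR, against 1.57% of all genes. At an unadjusted p under 0.05 the counts were 0 and 11, and DESeq2 called 0 cytosolic members and 3 mitochondrial members, all 3 lower. The median interaction was 0.11 for cytosolic and -0.32 for mitochondrial members, and 67 of the 74 mitochondrial estimates were below 0. The cytosolic median was not stable in sign: it was 0.38 without baseline DKO replicate 3, -0.04 without baseline DKO replicate 2 and -0.30 without both libraries rich in 18S counts. The mitochondrial median stayed below 0 in these fits, at -0.13, -0.44 and -0.57. Without the 18S-rich libraries 11 cytosolic and 40 mitochondrial members had an unadjusted p under 0.05, and 1 cytosolic member was called, lower. Mrps22 had -0.75 ± 0.23 (adjusted p = 0.108), Mrps25 -0.71 ± 0.22 (adjusted p = 0.117) and Mrpl49 -0.51 ± 0.16 (adjusted p = 0.113). The contrast of 41 mitochondrial calls in WT with 5 in DKO is therefore not shown, gene by gene, to be a difference between genotypes.

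**Figure D4:**
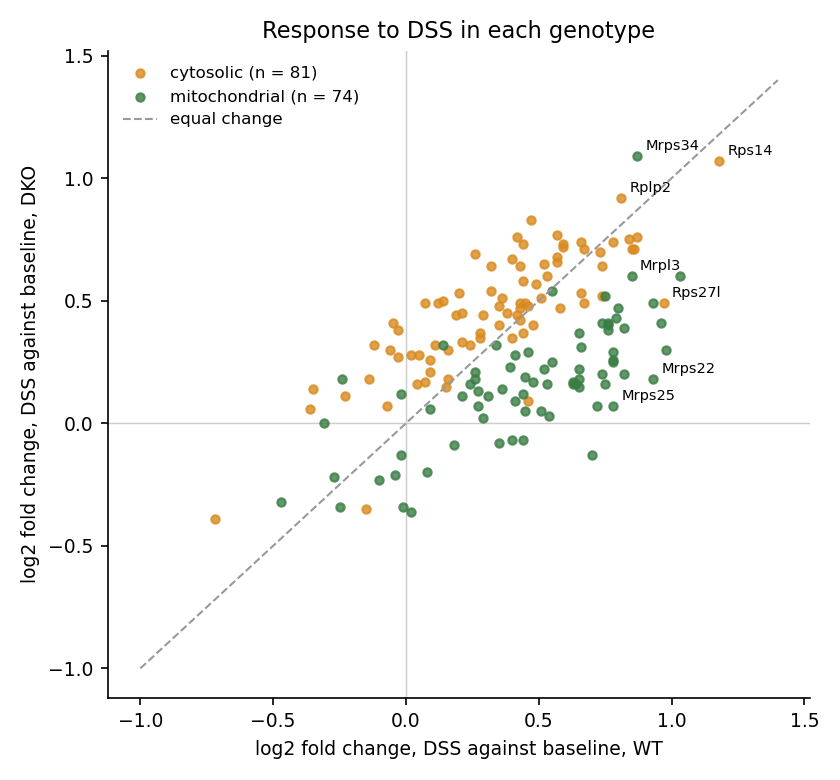
Log2 fold change of each ribosomal protein gene after DSS in WT (horizontal) and in DKO (vertical), cytosolic in orange and mitochondrial in green, with a dashed line where both are equal. Mitochondrial genes such as Mrps22 (0.93 in WT, 0.18 in DKO) lie mostly below the line and many cytosolic genes lie above it.

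After DSS, DKO and WT differed in few single members. Of the 81 cytosolic genes 1 was higher in DKO and 0 lower, and of the 74 mitochondrial genes 1 was higher and 3 lower, against 11.2% of all genes called in either direction (5.26% higher and 5.98% lower). The lists leaned in opposite directions, with a median log2 fold change of 0.30 over the cytosolic genes, 77 of 81 above 0, and -0.15 over the mitochondrial genes, 60 of 74 below 0. The median of all genes was 0.03, and that of the other genes under 1000 bases was -0.06. DKO libraries were all above WT for 16 cytosolic members and all below for 1, against 14% and 17.9% of all genes, and for mitochondrial members the counts were 4 and 33. This comparison shares the 3 DSS WT libraries with that of DSS and baseline in WT, so the 2 are not independent.

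Rpl8, a large-subunit protein close to the peptidyl transferase centre, was the cytosolic gene that rose. It was at 560, 598 and 547 CPM in DSS WT and 740, 833 and 862 CPM in DSS DKO, with no overlap and a log2 fold change of 0.51 ± 0.15 (adjusted p = 0.0435). Baseline levels of 531 to 839 CPM spanned most of that range. Rps13 (0.49 ± 0.17, adjusted p = 0.0891) and Rpl14 (0.49 ± 0.19, adjusted p = 0.126) had the next lowest p-values and did not pass.

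The 3 mitochondrial genes lower in DKO were Mrps25, Mrps22 and Mrpl49. Mrps25 was at 31.5, 31.0 and 32.1 CPM in DSS WT and 24.5, 18.9 and 18.6 CPM in DSS DKO (-0.61 ± 0.15, adjusted p = 0.0216). Mrps22 was at 26, 27.2 and 25.9 CPM against 18, 18 and 17.7 CPM (-0.56 ± 0.15, adjusted p = 0.0346). In both genes the DSS DKO values were close to the baseline ones, and the DSS WT libraries stood above every other library. Mrpl49, whose spread within groups was the smallest of its list, was at 48.0, 49.6 and 47.2 CPM against 39.1, 37.9 and 33.7 CPM (-0.39 ± 0.10, adjusted p = 0.0338). Mrps26 was the exception in direction, with 22.3, 20.4 and 19.3 CPM in DSS WT and 30.4, 28 and 28.8 CPM in DSS DKO (0.49 ± 0.14, adjusted p = 0.0431).

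None of these 5 calls held with every library left out in turn, the highest adjusted p being 0.155 for Rpl8, 0.102 for Mrps25, 0.12 for Mrps22, 0.123 for Mrpl49 and 0.161 for Mrps26. The mitochondrial count was 0 without DSS WT replicate 2 or 3 or without DSS DKO replicate 2 or 3, 1 without DSS WT replicate 1, and 4 without DSS DKO replicate 1. The cytosolic count was 2 without DSS DKO replicate 1 and 0 without any of the other 5. Markers of other cells moved with genotype here: T cell markers summed to 168 to 182 CPM in DSS WT and 50.6 to 97.8 in DSS DKO, neutrophil markers to 64.5 to 75.2 and 177 to 257, and stem and cycling crypt markers to 1090 to 1280 and 573 to 926. Fibroblast and muscle markers overlapped in sum (284 to 334 and 219 to 368 CPM), with 3 of 10 called higher. Of the first 3 lists, 10 of 12 T cell and 6 of 12 crypt markers were called lower and 5 of 10 neutrophil markers higher. Ly6g alone held 39, 26.8 and 25.4 CPM of the neutrophil sums in DSS WT and 113, 144 and 135 CPM in DSS DKO. Of the 10 neutrophil markers, 9 had fold changes above 0 and 1, Csf3r, below. The markers are those of all 4 lists above. Their part in the members' differences was not tested.

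**Figure D5:**
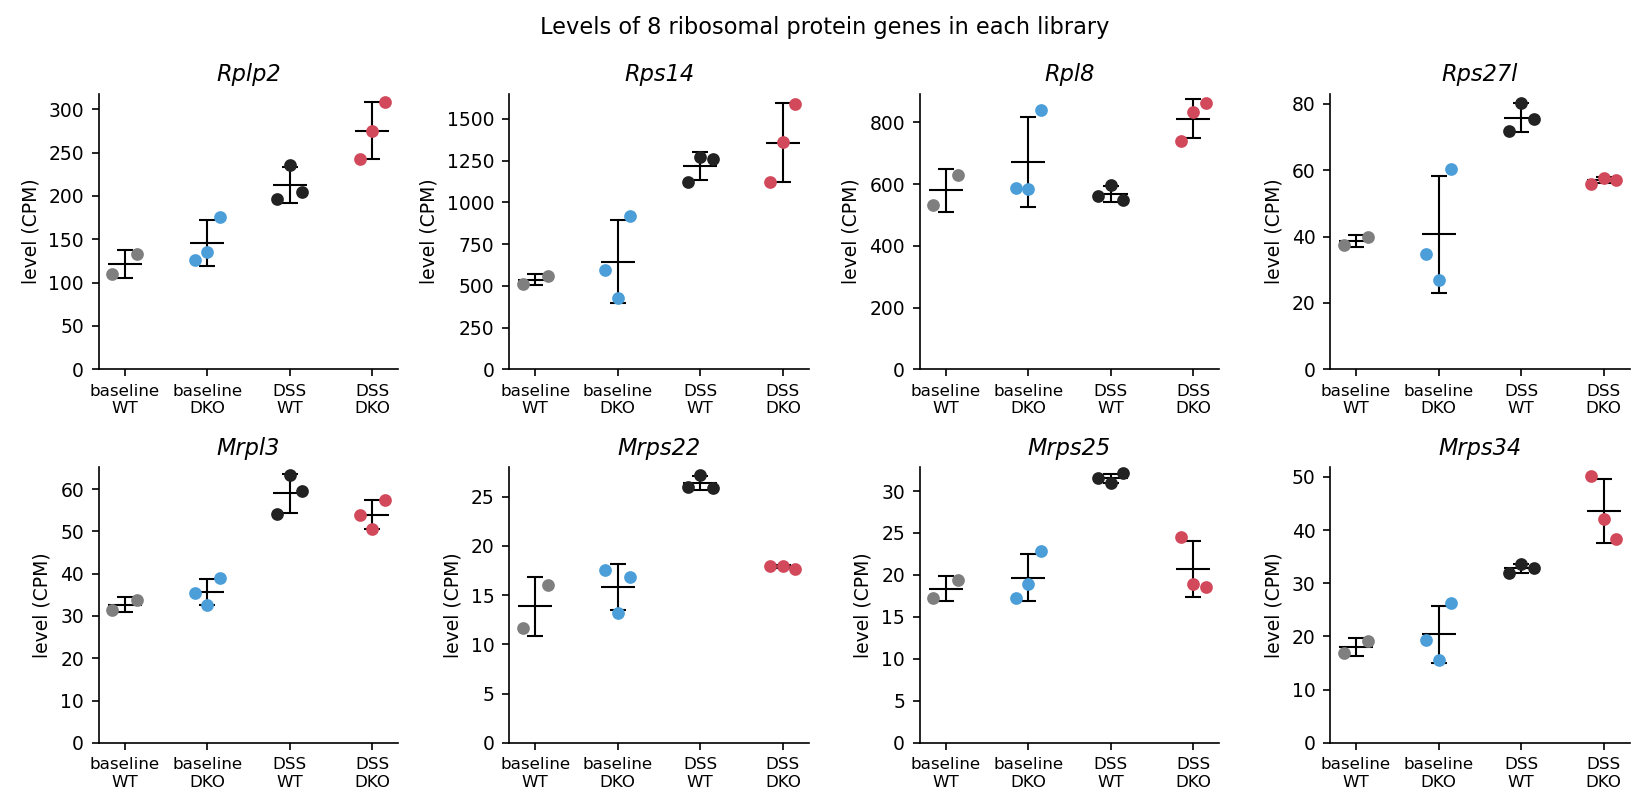
Level (CPM) of 8 ribosomal protein genes in each of the 11 libraries (points), with the group mean and SD (bars). Mrps22 and Mrps25 are highest in the 3 DSS WT libraries, while Mrps34 and Rplp2 are highest in DSS DKO.

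At baseline no member was called between the genotypes. The count was 0 of 81 and 0 of 74 by edgeR, 0 and 0 at an unadjusted p under 0.05 and 0 and 0 by DESeq2, against 0.026% of all genes called by edgeR. Median log2 fold changes (DKO over WT) were 0.15 and 0.13, against 0.01 for all genes, and moved with the libraries. They became -0.09 and -0.01 without baseline DKO replicate 3, 0.31 and 0.22 without baseline DKO replicate 2 (12 and 8 members at an unadjusted p under 0.05, 0 called), 0.33 and 0.26 without baseline WT replicate 2 and 0.03 and 0.06 without baseline WT replicate 1. Without both libraries rich in 18S counts they were 0.57 and 0.41, and 50 cytosolic and 34 mitochondrial members had an unadjusted p under 0.05 with 0 called. The cytosolic gene with the lowest p was Rplp0, at 1210 and 1440 CPM in WT and 1520, 1480 and 2120 CPM in DKO (0.36 ± 0.18, adjusted p = 1). Among mitochondrial genes it was Mrps16, at 16.2 and 16 CPM in WT and 18.7, 16.5 and 29.5 CPM in DKO (0.42 ± 0.21, adjusted p = 1). In each, replicate 3 was the highest of the DKO libraries.

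Paralogs were compared with their partners within libraries. Rps27l, a p53-induced copy of the small-subunit gene Rps27, measured 37.4 and 40.0 CPM in baseline WT, 34.7, 26.9 and 60.4 in baseline DKO, 71.7, 80.3 and 75.5 in DSS WT, and 56.0, 57.7 and 57.2 CPM in DSS DKO. It rose with DSS in WT by 0.97 ± 0.26 (adjusted p = 0.0159), while its change in DKO was 0.49 (adjusted p = 0.142) and the interaction -0.49 ± 0.34 (adjusted p = 0.482). The ratio of Rps27l to Rps27 counts was 0.223 and 0.233 in baseline WT, 0.236, 0.217 and 0.227 in baseline DKO, 0.356, 0.307 and 0.345 in DSS WT and 0.236, 0.174 and 0.166 in DSS DKO. The DSS WT libraries were alone above 0.3. Baseline DKO replicate 3, which stood apart in both levels, did not stand apart in this ratio. The ratio of Rpl22l1 to Rpl22 ran from 0.223 to 0.306 over all libraries, and in it too the DSS groups did not overlap, with 0.294, 0.286 and 0.279 in WT and 0.264, 0.234 and 0.223 in DKO. Rpl39l stayed between 1.79 and 3.5 CPM against 81.9 to 202 CPM for Rpl39.

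Of the 4 X-linked cytosolic members, all had fold changes above 0 after DSS in both genotypes. So did most of the list, 69 of 81 cytosolic members in WT and 79 of 81 in DKO. Rpl10 and Rpl36a were called higher after DSS in DKO (0.57 and 0.73), while Rpl39 (0.65, adjusted p = 0.0647) and Rps4x (0.37, adjusted p = 0.164) were not, and none of the 4 was called in WT. Median changes did not follow the pyrimidine run. Cytosolic genes with a run of at least 8 had a median of 0.43 after DSS in WT and 0.46 in DKO, and those without one 0.43 and 0.50.

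Some ribosome proteins and paralogs have symbols that fall outside the rule. Rpl7l1, a paralog of Rpl7, rose with DSS by 1.13 ± 0.16 in WT (adjusted p = 0.000641) and 0.57 ± 0.14 in DKO (adjusted p = 0.012). Fau and Rps3a1 were higher after DSS in DKO (0.69 and 0.58). Of 8 further mitochondrial ribosome proteins, Ptcd3, Aurkaip1 and Chchd1 rose with DSS in WT and 0 did in DKO. After DSS, Mrps18b was higher in DKO (0.61 ± 0.14, adjusted p = 0.0155) and Ptcd3 lower (-0.41 ± 0.11, adjusted p = 0.0399).

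Among 16 genes listed for TOP messages, most of them translation factors, 3 were higher in DKO after DSS and 0 lower. The TOP motif itself was not examined for these genes, and Hnrnpa1, Npm1, Nap1l1 and Tpt1 are not translation factors. Eef2, the elongation factor of translocation, was at 3160, 2850 and 3110 CPM in DSS WT and 4570, 4630 and 5170 CPM in DSS DKO (0.66 ± 0.12, adjusted p = 0.00518), and Pabpc1 (0.44) and Hnrnpa1 (0.41) were the others. With DSS, 6 rose and 1 fell in WT and 5 rose in DKO. Pabpc1, the poly(A)-binding protein, was the gene that fell in WT (-0.59 ± 0.12, adjusted p = 0.00355). The shares higher were 18.8% in DKO over WT after DSS, 37.5% with DSS in WT and 31.2% in DKO, against 5.26%, 16.9% and 12.6% of all genes.

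Of 48 ribosome biogenesis genes, 18 rose and 0 fell with DSS in WT, and 12 rose and 1 fell in DKO. The shares higher were 37.5% and 25%, against 16.9% and 12.6% of all genes. Fbl, the methyltransferase of ribosomal RNA, read 30.7 and 40.7 CPM in baseline WT, then 82.5, 85.4 and 85.4 CPM in DSS WT (1.24 ± 0.16, adjusted p = 0.000358), and changed by 0.50 ± 0.14 in DKO (adjusted p = 0.0208). Ncl, which encodes nucleolin, had 0.33 in WT (adjusted p = 0.211) and 0.54 in DKO (adjusted p = 0.0437). Between genotypes after DSS, 1 of the 48 was called, Utp20, lower in DKO by -1.01 ± 0.19 (adjusted p = 0.00805). Of 15 RNA polymerase I genes, 3 rose and 1 fell in WT and 3 rose in DKO, 20% in each, which in WT is near the share of all genes, and Taf1a was higher in DKO after DSS (0.43 ± 0.13, adjusted p = 0.049).

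Of 30 mitochondrial translation factors, 8 rose and 1 fell with DSS in WT, and 3 rose and 3 fell in DKO. In DKO both shares were 10%, near the 12.6% higher and 11% lower of all genes, and in WT 26.7% rose against 16.9%. Mtrf1l, a release factor, was at 18.5, 21.8 and 20.4 CPM in DSS WT and 14.7, 13.2 and 11.2 CPM in DSS DKO (-0.63 ± 0.15, adjusted p = 0.0176). Tufm, the elongation factor that delivers tRNA, fell with DSS in DKO by 0.52 on the log2 scale (adjusted p = 0.00566). Lars2 was called lower in DKO too, but its baseline DKO levels were 10300, 2000 and 152 CPM, in the order of the 18S shares of those libraries. Of 22 mitochondrial ribosome assembly factors, 5 rose (22.7%) and 1 fell in WT and 0 rose and 1 fell in DKO, and the gene that fell was Mettl17 in both (-0.90 and -0.40).

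Among 15 regulators of ribosome supply, 3 rose and 4 fell with DSS in WT, and 3 rose and 2 fell in DKO. With 20% higher in each genotype and 26.7% and 13.3% lower, against 16.9% and 12.6% higher and 16.5% and 11% lower among all genes, most of these shares were near the background. Larp1, whose protein binds TOP messages, measured 163 and 136 CPM in baseline WT, 141, 168 and 127 in baseline DKO, 56.4, 36.1 and 39.2 in DSS WT, and 88.5, 49.6 and 28.4 CPM in DSS DKO. Every DSS library was below every baseline library, with log2 fold changes of -1.77 ± 0.39 in WT (adjusted p = 0.0084) and -1.39 ± 0.36 in DKO (adjusted p = 0.0219). Myc, a transcription factor that drives ribosomal genes, fell by 0.99 on the log2 scale in WT (adjusted p = 0.0262) and by 0.87 in DKO (adjusted p = 0.04). Mtor was lower in WT (-0.65 ± 0.20, adjusted p = 0.0255) and at -0.12 in DKO (adjusted p = 0.667). Rps6kb1, the S6 kinase, rose in both (0.67 and 0.48). None of the 15 was called between genotypes at baseline or after DSS.

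Reads of overlapping genes could not be separated, since the strand setting of the counting is not given in the sources used here. A row with more counts overlapped 14 of the 75 mitochondrial and 0 of the 83 cytosolic members. Mrps25 overlaps Nr2c2, Mrpl49 overlaps Syvn1 and Mrps34 overlaps Mapk8ip3 on the opposite strand. Syvn1, with 18352 counts in all against 21465 for Mrpl49, had 0.31 between the genotypes after DSS (adjusted p = 0.65), where Mrpl49 was lower in DKO. Nr2c2 rose with DSS in WT (1.11, adjusted p = 0.0145), as Mrps25 did, and was level between the genotypes after DSS (adjusted p = 0.994), where Mrps25 was not. Mapk8ip3 had -1.06 in WT (adjusted p = 0.0705), opposite to Mrps34. Mrpl3 overlaps Gm38077 on the same strand, a row with 1335 counts in all against 25010 for Mrpl3, which rose with DSS in WT (1.99, adjusted p = 0.00833) and had 1.15 in DKO (adjusted p = 0.0557). Without members that overlap a row of at least 1000 counts, 28 of 53 mitochondrial (52.8%) and 10 of 70 cytosolic members were higher after DSS in WT, and 3 of 53 and 21 of 70 in DKO. Between the genotypes after DSS, 1 of these 53 mitochondrial members was higher in DKO and 1 lower, and 1 of the 70 cytosolic members was higher and 0 lower.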

How the data were processed

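RNA was sequenced from 11 libraries of Percoll-enriched colonic epithelial cells. Libraries were made from poly(A)-selected RNA with a NEBNext Ultra II kit, per the labels' protocols. Reads were processed with STAR on mm10, per the submitters' processing notes. The sources used here name no read counter, annotation or strand setting. The authors deposited raw counts per gene, whole numbers with unequal totals and no normalization. No pair of libraries in a group agreed within sampling noise.

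Counts were fitted in R 4.3.3 with edgeR 4.0.16: filterByExpr at a minimum count of 10 (19267 genes), TMM scaling, 1 mean per group over all 11 libraries, a robust quasi-likelihood F-test (two-sided) and Benjamini-Hochberg adjustment over all genes tested at 0.05. SE is the size of the log2 change over the root of F. CPM values are TMM-scaled. DESeq2 1.42.0, other scalings, filters, sample sets, a replicate block and leaving out each library were alternatives. The steps were tested on simulated counts. Positions and lengths came from GENCODE M21 on GRCm38.

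The members, gene lists and naming rule were chosen with earlier results of these data known. Named were up to 6 called members per list, direction and comparison with the largest change (mean log2 CPM of at least 1), or the 3 with the lowest p where fewer than 3 were called, paralogs with their partners, stalk and checkpoint genes, X-linked genes, members at the extremes of level and spread, and up to 3 called genes per pathway list. Mrpl15, Mrpl39 and the overlapping genes were named after their values were seen. Some genes that the rule allows are left out.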

Additional observations from a re-analysis of the deposited data

Results flagged for a closer look

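No ribosomal protein gene was called in the interaction of genotype and DSS by edgeR. Among the marker genes, 4 were, each by the test of that difference itself with Benjamini-Hochberg adjustment over all genes. The neutrophil genes Ly6g and Mmp8 changed more with DSS in DKO, by 1.86 ± 0.24 (SE, log2 scale, adjusted p = 0.0106) for Ly6g and 3.05 ± 0.54 (adjusted p = 0.0207) for Mmp8, with Ly6g at 39.0, 26.8 and 25.4 CPM in DSS WT and 113, 144 and 135 CPM in DSS DKO. The crypt stem cell gene Smoc2 and the replication gene Mcm5 had -1.80 ± 0.26 (adjusted p = 0.0123) and -1.60 ± 0.30 (adjusted p = 0.0281). Mcm5 was at 120, 115 and 112 CPM in DSS WT and 74.4, 44.7 and 38.0 CPM in DSS DKO. In these 4 genes the DSS groups did not overlap. They are given as values beside the ribosomal results, and their part in them was not tested. Whether these marker calls hold with a library left out was not examined. Interaction calls over all genes fell from 149 higher and 153 lower to 20 and 23 without DSS DKO replicate 2.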

How the results depend on the processing

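No named gene that was called changed direction, but list medians near 0 changed sign (cytosolic interaction -0.04 without baseline DKO replicate 2, and with the pair of 18S-rich libraries left out -0.30, mitochondrial DSS in DKO -0.10). Of the counts and differences between list medians, 191 under an alternative were within 1.5 times or 1 SD of the reported value, and 49 were not. The 191 include counts of the baseline genotype comparison and of the interaction that were 0 in the reported fit and stayed 0, so they overstate how stable the other counts were. After DSS (DKO over WT, 1 cytosolic and 4 mitochondrial calls), the cytosolic count was 0 without Rn18s-rs5, 13 without a filter and 2 with only the groups compared (1 higher, 1 lower), and the mitochondrial count 2 without a filter (both lower) and 7 with only the groups compared or by DESeq2 (1 higher, 6 lower). Leaving out 1 library gave 0 to 2 and 0 to 4 calls. For DSS in WT (12 and 41), the cytosolic count was 39 without a filter and 33 with only the groups compared, and leaving out 1 library gave 0 to 10 and 6 to 35. For DSS in DKO (24 and 5), the cytosolic count was 48 without a filter and 4 with only the groups compared, the mitochondrial count 2 with only the groups compared and 8 at a minimum count of 50 or by DESeq2 (7 higher, 1 lower), and leaving out 1 library gave 2 to 66 and 2 to 25. In the interaction (0 and 0), DESeq2 called 3 mitochondrial members and leaving out 1 library 0 to 1. Without both libraries rich in 18S counts, an alternative chosen after seeing the data, DSS in DKO gave 0 and 0 calls, the interaction 1 cytosolic call, and the median difference between the lists was 0.17 for DSS in DKO (0.32), 0.27 for the interaction (0.43) and 0.16 for DKO over WT at baseline (0.01). With the replicate number as a block, DSS in DKO gave 40 cytosolic and 8 mitochondrial calls, and after DSS the DKO over WT call of Mrps26 was lost (adjusted p = 0.0569), leaving 0 mitochondrial members higher and 4 lower. The labels do not say that numbers pair libraries, and same-numbered libraries did not deviate together in each comparison (r from -0.07 to 0.30), although after DSS each correlated best with its own number. The causes were not tested.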
